A study of Homo sapiens with 4 samples.

Results

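Transcripts of splicing factor and RBM genes were examined in beta-catenin RNA immunoprecipitation (RIP) libraries of HT-29 and CaCo-2, both lines from colon adenocarcinomas. The members were the listed transcripts whose gene name begins with SRSF, HNRNP or HNRP, SNRP, SNRNP, SF3A, SF3B, U2AF, PRPF or RBM (with a digit after SRSF, PRPF and RBM), leaving out pseudogene classes. This gave 125 of 9880 transcripts in HT-29, from 68 of 6489 gene names, and 123 of 11943 in CaCo-2, from 69 of 7452. Over both lines there were 226 different transcripts of 88 genes. Of the 120 protein-coding genes in the RefSeq annotation of GRCh38.p14 that carry such symbols, 86 were listed in at least 1 line and 34 in neither, among them SRSF6, PRPF6, SNRPD1 and SF3B4. Unlisted genes and isoforms are outside these data. Outside these symbols, PRPF4B did not match a current protein-coding symbol, and HNRNPU-AS1, of the antisense class, is taken in by the name rule.

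Introns are removed by the spliceosome, which is built from small nuclear RNAs and their proteins. U1 and U2 particles mark the ends of the intron, and the U4/U6.U5 particle joins them before catalysis. SR proteins (the SRSF genes) bind exonic enhancers and mostly favour exon use, while hnRNP proteins often oppose it. Many of these genes adjust their own output through splicing: an unproductive isoform, kept in the nucleus with an intron or degraded by nonsense-mediated decay, is made when the protein is plentiful. The isoform class of each listed transcript is therefore of interest for this group.

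Each line, untreated, was represented by 1 library of RNA precipitated from nuclear lysate with an antibody to beta-catenin (Bethyl A302-012A) and 1 input library made without antibody, 4 libraries in all. HT-29 and CaCo-2 are established cell lines, and no precipitate of a control antibody was analysed here. The deposited tables hold transcripts above a minimum ratio: where input was above 0, the lowest RIP to input ratio was 1.5 in both lines, so every member is higher in the RIP by selection. RIP levels began at 1.31 FPKM for HT-29 and at 0.842 FPKM for CaCo-2. FPKM (fragments per kilobase of transcript, scaled to sequencing output) is a level per length. There were no replicates, no fold was tested here, and sequencing depth is unknown from these tables. Of 10 colon epithelial markers, 7 were in the HT-29 table and 5 in that of CaCo-2, KRT8, KRT18, KRT19, CDH1 and LGALS4 in both. Of 5 markers of other cells (VIM, COL1A1, PTPRC, PECAM1 and HBB), 0 were listed in either line. Because of the selection by ratio, an unlisted marker may still be expressed, so these counts cannot check cell identity.

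Ratios below are log2 of (RIP FPKM + 1) over (input FPKM + 1), for transcripts that reached 1 FPKM in the RIP or the input of the line. All 125 HT-29 members and 112 of the 123 CaCo-2 members passed. In HT-29, 66 of 125 members (52.8%) reached 2-fold, RIP over input, near the 56.0% of all transcripts that passed, and their median ratio was 1.07, against 1.14 for the other listed transcripts. In CaCo-2 it was 50 of 112 (44.6%), near the 40.8% of all, with medians of 0.86 and 0.82. Members were more abundant than the rest of the tables. Their median level in the RIP of HT-29 was 3.30 FPKM and in that of CaCo-2 2.06, while the other transcripts had 2.44 and 1.55. Input was listed at 0 for 28 members in HT-29 (22.4%), against 31.8% of the whole table, and for 34 in CaCo-2 (27.6%), against 29.0%. A transcript with input at 0 reaches 2-fold by construction once it passes the filter. Among transcripts at or above 1 FPKM in RIP and input alike, 23 of 63 members were at 2-fold in HT-29 (36.5%, with 25.2% of all such transcripts) and 8 of 42 in CaCo-2 (19.0%, with 13.1%). The difference from the other transcripts was not tested, and levels were not matched between them. In the authors' deposited table, 1 member had q at or below 0.05 in each line, SNRPE in HT-29 and RBM10 in CaCo-2, where 3.08% and 2.24% of all listed transcripts did. The median q of the members was 0.809 in HT-29 and 0.953 in CaCo-2 in the authors' deposited table. The 2 members nearest the threshold in HT-29 were at 0.98 below it and 1.002 above it on the log2 scale, and in CaCo-2 at 0.94 and 1.002.

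Retained-intron transcripts, in which at least 1 intron is kept, were the second most frequent class of member after protein-coding ones. In HT-29 they were 36 of 125 (28.8%, 95% Wilson interval 21.6 to 37.3), against 16.9% (16.2 to 17.6) of the other transcripts. In CaCo-2 they were 29 of 112 (25.9%, 18.7 to 34.7), against 22.6% (21.8 to 23.4). The intervals were apart in HT-29 and overlapped in CaCo-2. They cover counting error only and take transcripts as independent, whereas several belong to 1 gene. Counting each gene once, by its most abundant transcript in the RIP, the share was 25% in HT-29 and 26.9% in CaCo-2, against 12.1% and 17.8% of other genes. How many retained-intron isoforms each gene has in the annotation was not analysed here, so the shares do not compare how often such isoforms came down.

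**Figure D1:**
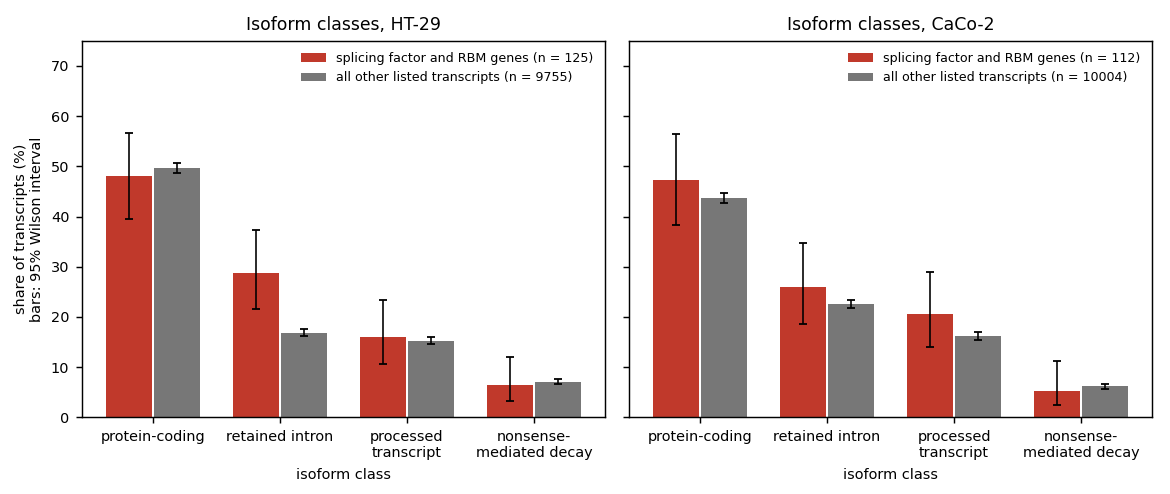
Share of transcripts in each isoform class (y axis, percent) among splicing factor and RBM genes (red) and all other listed transcripts (grey) that passed the filter, with 95% Wilson intervals. Retained-intron transcripts stand at 28.8% of the members and 16.9% of the others in HT-29, and at 25.9% and 22.6% in CaCo-2.

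In HT-29 the other classes were closer to the rest of the table. In CaCo-2, after the filter, protein-coding and processed transcripts differed from it by more than retained-intron ones did. Over all listed CaCo-2 transcripts, without the filter, retained-intron ones differed most, at 27.6% of members against 22.6% of the others. Processed transcripts were then at 20.3% against 16.4%, and protein-coding ones at 43.9% against 43.0%. The shares that follow are after the filter. Protein-coding transcripts were 60 of 125 members in HT-29 (48.0%, against 49.6% of the others) and 53 of 112 in CaCo-2 (47.3%, against 43.7%). Processed transcripts, which have no annotated reading frame, were 16.0% of the members in HT-29 and 20.5% in CaCo-2, against 15.3% and 16.2%. Nonsense-mediated-decay transcripts were 8 of 125 (6.40%) and 6 of 112 (5.36%), against 7.08% and 6.20%. In HT-29, 24 of the 68 genes had no protein-coding transcript in the table, and in CaCo-2 26 of 69. SRSF2 was among them in HT-29, with 3 retained-intron transcripts, and SNRPA1 in CaCo-2, also with 3.

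Listed retained-intron members span short stretches of their genes. Their median genomic span, introns included, was 2597 nucleotides in HT-29 and 2568 in CaCo-2, against 8962 and 13607 for protein-coding members. Other retained-intron transcripts had medians of 3255 and 3216. The SF3B1 retained-intron transcript, for example, covers 1097 nucleotides of its gene (hg19, chr2:198256979-198258075, minus strand).

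The median ratio of retained-intron members lay below that of protein-coding ones, by little in CaCo-2. In HT-29 the median ratio of retained-intron members was 0.91 over 36 transcripts and that of protein-coding members 1.08 over 60. In CaCo-2 the medians were 0.87 over 29 and 0.88 over 53. Their difference, retained-intron minus protein-coding, was -0.16 in HT-29 and -0.0086 in CaCo-2. Among members at or above 1 FPKM in both libraries its sign turned, to 0.035 and 0.075. At least 2-fold were 17 of 36 retained-intron members in HT-29 (47.2%, with 52.0% of all retained-intron transcripts listed) and 14 of 29 in CaCo-2 (48.3%, with 32.0%). Of protein-coding members, 31 of 60 (51.7%, with 53.2% of all) and 25 of 53 (47.2%, with 42.0%) were. Input was at 0 for 7 retained-intron members in HT-29 (19.4%) and 12 in CaCo-2 (35.3% of the 34 listed), where the other retained-intron transcripts had 30.4% and 23.6%. Among retained-intron transcripts at or above 1 FPKM in both libraries, 8 of 18 members in HT-29 were at 2-fold (44.4%, against 21.5% of the others). In CaCo-2 it was 1 of 14, an HNRNPL transcript (7.14%, against 8.26%).

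**Figure D2:**
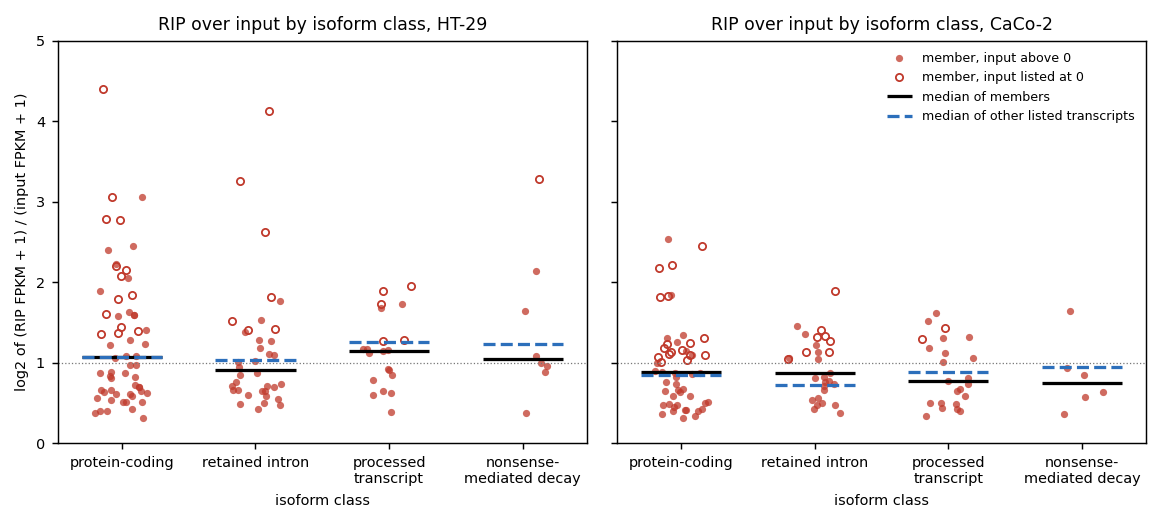
Log2 of RIP over input, with 1 FPKM added to each (y axis), for every member that passed the filter, by isoform class. Open circles have input listed at 0, black lines are medians of members, dashed blue lines medians of other listed transcripts, and the dotted line marks 2-fold. In HT-29 the retained-intron median is 0.91 and the protein-coding 1.08, and in CaCo-2 they are 0.87 and 0.88. The members above 3 in HT-29 mostly have input at 0.

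Within single genes neither class was regularly the higher. Both a retained-intron and a protein-coding transcript passed for 18 genes in HT-29, and the retained-intron median was the higher in 8 and the lower in 10. In CaCo-2 it was higher in 4 of 11 genes and lower in 7. HNRNPC in HT-29 had its retained-intron transcript at 4.13 and a median of 1.37 over 3 protein-coding ones. RBM39 went the other way there, at 0.67 for its retained-intron transcript and a median of 2.21 over 2 protein-coding ones. Input was listed at 0 for this HNRNPC retained-intron transcript, and at 0 and 0.0023 FPKM for the RBM39 protein-coding ones. Both contrasts thus involve inputs at or near 0. For SF3A1 the retained-intron and protein-coding values were 0.76 and 0.70 in HT-29, while CaCo-2 gave 1.35 and 1.002. How reads were shared among isoforms was set by the authors' software. Of the members, 70 in HT-29 (56.0%) and 72 in CaCo-2 (58.5%) overlap another listed transcript of the same gene, so an isoform with input at 0 can belong to a gene that had reads there. A listed transcript of a gene outside the members, on either strand, overlaps 6 members in HT-29 (4.8%) and 11 in CaCo-2 (8.94%). These counts leave out overlaps between members of different genes, such as RBM14-RBM4 with RBM14 and RBM4 in HT-29. Whether the libraries keep the strand is not known, so the levels of these members are uncertain. They include RBM26 in HT-29 and SNRNP27, HNRNPLL and U2AF2 in CaCo-2.

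Among the SR proteins, 7 genes were in the HT-29 table and 6 in that of CaCo-2. In HT-29, 7 of their 16 transcripts were of the retained-intron class, and 7 passed 2-fold with a family median of 0.90. In CaCo-2, 7 of the 11 that passed the filter were at 2-fold, with a median of 1.09. These are 43.8% and 63.6%, where all listed transcripts had 56.0% and 40.8%. SRSF2, which binds exonic enhancers and is known to control its own mRNA by splicing, had the highest SR protein levels. Its 3 retained-intron transcripts were at 13.7 against 8.70 FPKM, 10.97 against 4.28, and 5.16 against 0 in the HT-29 RIP and input. The first and last of them lie at chr17:74730245-74731743 and chr17:74731219-74732236. They overlap and differ widely in ratio, from 0.60 to 2.62. SRSF2 was not listed in CaCo-2. SRSF5 was listed by 3 transcripts in each line. A short protein-coding isoform was at 8.17 against 1.21 FPKM in HT-29, a ratio of 2.05 with more than 1 FPKM on both sides. The longer SRSF5 isoform ENST00000394366 had 2.04 FPKM in the RIP of HT-29 from input at 0, and 2.28 with 0.536 in the input of CaCo-2. SRSF7, a zinc-knuckle SR protein that also takes part in mRNA export, was listed in CaCo-2 alone. Its protein-coding transcript (chr2:38970741-38978636) was at 4.54 against 0.548 FPKM, and the authors' deposited table gave q = 0.0561. A nonsense-mediated-decay isoform of SRSF7 was at 0.867 against 0.131 and did not pass the filter. SRSF3 had 10.4 against 6.41 FPKM in HT-29, below 2-fold. SRSF11, an arginine- and serine-rich splicing protein, contributed 4 transcripts in HT-29, between 4.28 and 5.68 FPKM in the RIP and between 1.35 and 2.73 in the input. Their ratios lay close together, the highest being 1.17 and the lowest 0.84. SRSF1, an activator of exon inclusion, had 3 transcripts between 1.87 and 2.32 FPKM in the RIP of HT-29, and 2 of them had input at 0. Of the 3, 2 overlap a listed transcript of another gene on the same strand, so their levels are uncertain.

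hnRNP genes gave the largest group, with 39 transcripts for HT-29 and 35 for CaCo-2, each from 15 gene names, HNRNPU-AS1 included. At least 2-fold were 18 of 39 in HT-29 (46.2%) and 13 of the 32 that passed in CaCo-2 (40.6%), below the 56.0% of all listed transcripts in HT-29 and near the 40.8% in CaCo-2. With at least 1 FPKM in both libraries the order turned in HT-29, at 10 of 24 (41.7%, with 25.2% of all such transcripts). In CaCo-2 it was then 3 of 14 (21.4%, with 13.1%). HNRNPL, which binds CA repeats, had the highest hnRNP level, 40.3 against 14.6 FPKM in HT-29 for a protein-coding isoform (chr19:39327275-39342978). A nonsense-mediated-decay isoform of HNRNPL was at 7.40 against 1.68 there. In CaCo-2 the leading HNRNPL transcript was instead a retained-intron one at 12.1 against 3.74 FPKM (chr19:39327035-39328225), which spans 1191 nucleotides. These isoforms were not listed in the other line. HNRNPA1, which binds exonic silencers, had a protein-coding transcript at 27.6 against 6.71 FPKM in HT-29 and a retained-intron one at 6.88 against 3.98. HNRNPA3 was at 11.5 against 1.35 in HT-29, the highest ratio, 2.41, among members with at least 1 FPKM in both libraries. Processed pseudogenes of HNRNPA1 and HNRNPA3 were also listed in HT-29, at 1.59 to 2.78 FPKM in the RIP. How reads that match several copies were placed is not given in the sources used here, so these levels are uncertain. HNRNPK and HNRNPM reached 23.4 against 12.8 and 21.0 against 11.5 FPKM in HT-29, both under 2-fold. HNRNPC, which binds uridine tracts, reached 16.6 FPKM for a retained-intron transcript (chr14:21699057-21737582) in the RIP of HT-29, where its input was listed at 0. HNRNPU, a nuclear scaffold protein, had a retained-intron transcript at 16.3 against 4.97 FPKM in HT-29.

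In CaCo-2 the highest hnRNP levels were those of retained-intron transcripts. HNRNPA2B1, a relative of HNRNPA1, had one at 8.58 against 4.57 FPKM. HNRNPD and HNRNPM had the highest hnRNP ratios there, 2.54 and 2.18, where HNRNPM stood at 3.54 FPKM with input at 0. HNRNPAB had 2.55 FPKM and an HNRNPL protein-coding isoform 2.52, both with input listed at 0. HNRNPM was thus below 2-fold in HT-29 and past it in CaCo-2 by another isoform. HNRNPU-AS1, annotated as antisense but listed on the same strand as HNRNPU and not overlapping its listed transcripts, was at 2.77 FPKM in the RIP of HT-29 with input at 0, and at 1.01 in that of CaCo-2 with 0.470 in the input.

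**Figure D3:**
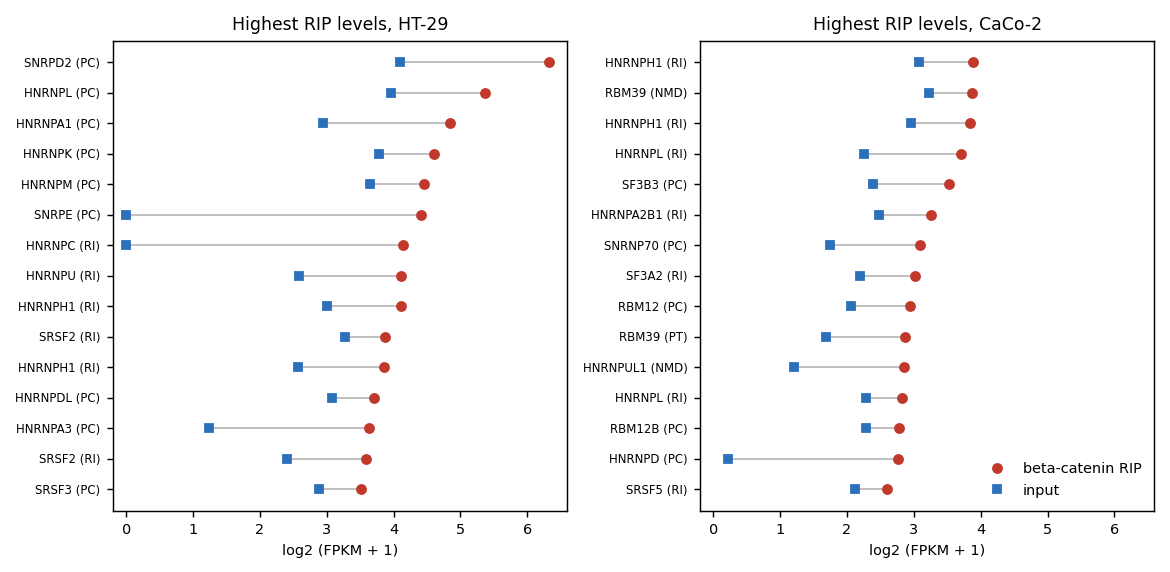
The 15 member transcripts with the highest RIP level in each line, with RIP (red circles) and input (blue squares) as log2 of FPKM + 1 on the x axis. PC is protein-coding, RI retained intron, PT processed transcript and NMD nonsense-mediated decay. HT-29 is led by SNRPD2 at 79.1 FPKM and CaCo-2 by HNRNPH1 at 13.7 FPKM.

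HNRNPH1, which binds G-rich tracts, had the most listed isoforms of any member gene in HT-29, 11, and 6 in CaCo-2, as many as RBM39. In HT-29, 6 were protein-coding and 5 of the retained-intron class. The retained-intron isoform ENST00000514332 was the highest in HT-29, at 16.3 against 7.02 FPKM, followed by ENST00000522958 at 13.5 against 4.95. Of the protein-coding isoforms ENST00000521173 led, at 9.71 against 2.54. Of the 11, 5 were at least 2-fold higher, and 2 of these had input at 0. In CaCo-2 the leading isoforms were also of the retained-intron class, ENST00000513972 at 13.7 against 7.42 and ENST00000505087 at 13.3 against 6.80. Both were under 2-fold, and the 1 HNRNPH1 transcript at 2-fold was a protein-coding one at 1.05 against 0. Without HNRNPH1, an alternative chosen after seeing the data, retained-intron transcripts were 27.2% of the members in HT-29 and 25.2% in CaCo-2.

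**Figure D4:**
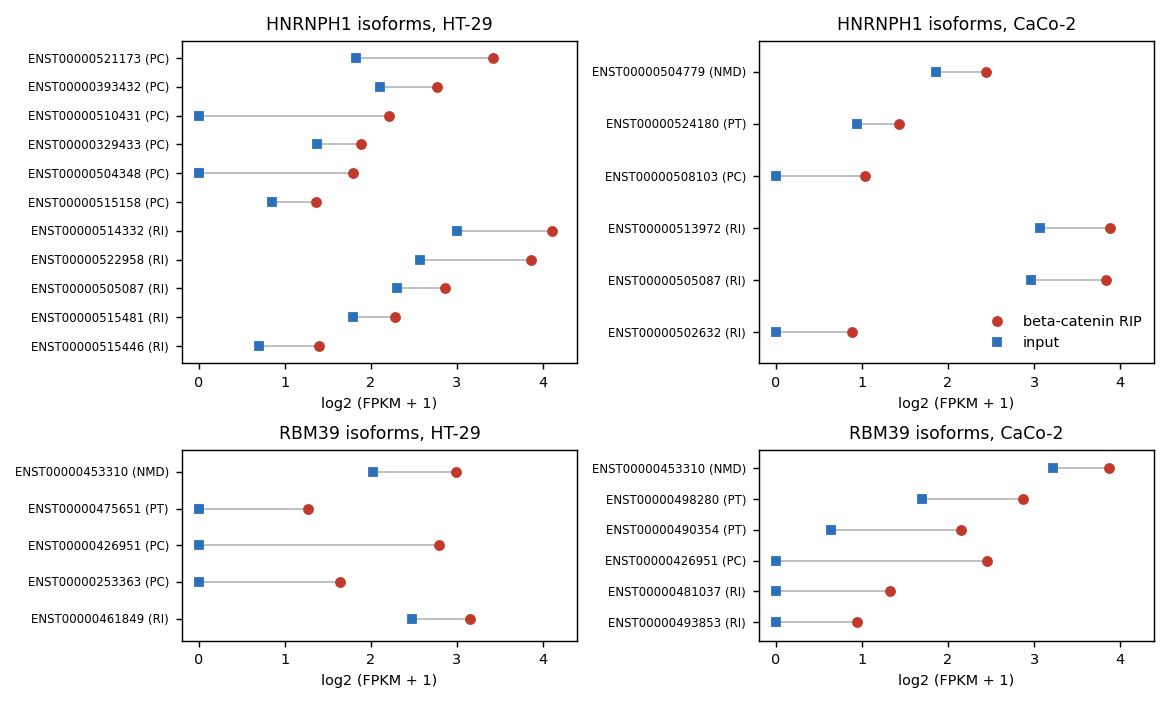
Listed isoforms of HNRNPH1 (top) and RBM39 (bottom) in HT-29 (left) and CaCo-2 (right), with RIP (red circles) and input (blue squares) as log2 of FPKM + 1 on the x axis and class abbreviations as PC, RI, PT and NMD. The highest HNRNPH1 isoforms are of the retained-intron class in both lines, at 16.3 FPKM in HT-29 and 13.7 FPKM in CaCo-2.

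The genes of snRNP proteins were the only family with a member past q of 0.05 in HT-29. The Sm proteins form the ring that carries each spliceosomal snRNA. SNRPD2, one of them, had the highest RIP level of any member, 79.1 against 16.1 FPKM in HT-29 (chr19:46190718-46195146), a ratio of 2.23. The authors' deposited table gave q = 0.167 for it. A different SNRPD2 isoform was listed in CaCo-2, at 3.48 against 0.817. SNRPE, another Sm protein, reached 20.2 FPKM for a protein-coding transcript (chr1:203832753-203839179) whose input in HT-29 was listed at 0. Its ratio, 4.404, was the highest of any member, and the authors' deposited table gave q = 0.0408. A longer SNRPE isoform that overlaps it was at 8.44 against 5.30, a ratio of 0.58. The isoforms of SNRPE thus had unlike ratios. SNRPD3 was listed in HT-29 by a nonsense-mediated-decay transcript at 8.74 against 0 FPKM. SNRPG had 3 transcripts in HT-29, between 1.48 and 2.25 FPKM in the RIP. Among U1 proteins, SNRNP70 was listed in both lines by the same protein-coding isoform. It had 10.2 FPKM in the RIP of HT-29 with 0.339 in the input, and 2.65 with 0.953 in CaCo-2. A further SNRNP70 retained-intron transcript was at 8.54 against 0 in HT-29, and a longer protein-coding one at 7.55 against 2.37 in CaCo-2. SNRPA and SNRPC, the other U1-specific proteins, were listed in CaCo-2 at 1.10 against 0 and 1.73 against 0.491. Of the U2-specific proteins, SNRPB2 was at 3.97 against 1.08 FPKM in CaCo-2, where the authors' deposited table gave q = 0.0869. SNRNP27, a protein of the U4/U6.U5 particle, was at 1.27 FPKM there with input at 0, and q = 0.0836 by the authors' deposited table. SNRPA1, the U2 partner of SNRPB2, had 3 retained-intron transcripts there, between 0.987 and 1.65 FPKM from inputs listed at 0. In all, 11 of 18 snRNP protein transcripts were at 2-fold in HT-29 (61.1%), with a median of 1.25, and 7 of the 19 that passed in CaCo-2 (36.8%), with a median of 0.82. Both are near the 56.0% and 40.8% of all transcripts.

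For the SF3A and SF3B subunits, which anchor the U2 particle at the branch point, 8 of 12 transcripts passed 2-fold in HT-29 (66.7%, with 56.0% of all) and 3 of the 5 above the filter did in CaCo-2 (with 40.8% of all), too few to read against those shares. SF3B3 led in both lines with the same short protein-coding transcript, which spans chr16:70557796-70563073. It had 10.1 FPKM in the RIP of HT-29, with input at 5.86, and 10.5 in CaCo-2, with input at 4.22. The SF3B1 retained-intron transcript given above was at 6.06 against 1.71 in HT-29. A nonsense-mediated-decay isoform of SF3B1, the branch-point binding subunit, had 4.28 FPKM in the RIP of HT-29, with input at 1.63, and 2.10 in that of CaCo-2, with input at 0.715. SF3A2, a further U2 subunit, had a retained-intron transcript at 7.13 against 3.58 FPKM in CaCo-2. U2AF, the heterodimer that reads the end of the intron, had 0 transcripts in the HT-29 table and 2 in that of CaCo-2. U2AF1, which contacts the terminal AG, was at 2.98 against 1.81 FPKM and U2AF2, which binds the pyrimidine tract, at 2.07 against 1.24, both under 2-fold.

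PRPF genes encode proteins of the U5 and U4/U6 particles and of associated complexes. Their 11 transcripts in HT-29 held 4 of the retained-intron class, and their 14 in CaCo-2 held 6. PRPF8, the U5 core protein, shared 1 retained-intron transcript (chr17:1581735-1582604) between the tables. It had 2.53 FPKM in the RIP of HT-29, from input at 0, and 3.43 in CaCo-2, with 1.602 in the input. PRPF19, a ubiquitin ligase of the active spliceosome, was listed in CaCo-2 at 3.66 against 0. A processed transcript of PRPF38A had RIP levels of 4.82 FPKM in HT-29 (input 1.61) and 3.02 in CaCo-2 (input 1.51). At 2-fold were 6 of 11 PRPF transcripts in HT-29 (54.5%, with 56.0% of all) and 6 of the 12 that passed in CaCo-2 (50%, with 40.8%), with medians of 1.12 and 0.93.

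The RBM symbol stands for RNA-binding motif and covers proteins of several functions, many of them splicing regulators. HT-29 listed 29 transcripts from 23 gene names and CaCo-2 33 from 19, with 16 of 29 (55.2%) and 14 of the 31 that passed (45.2%) at 2-fold, near the 56.0% and 40.8% of all transcripts. RBM39, a U2AF-related splicing coactivator, had 5 transcripts in HT-29 and 6 in CaCo-2. Its nonsense-mediated-decay isoform (chr20:34322441-34330180) had RIP levels of 6.95 FPKM in HT-29 (input 3.08) and 13.6 in CaCo-2 (input 8.36), under 2-fold in both. A protein-coding isoform of RBM39, ENST00000426951, was at 5.90 in HT-29 and 4.49 in CaCo-2, both from an input listed at 0. Processed transcripts of RBM39 in CaCo-2 were at 6.33 against 2.23 FPKM and 3.46 against 0.560. At 2-fold were 3 of the 5 HT-29 transcripts of RBM39 and 4 of the 6 from CaCo-2. RBM10, a regulator of exon skipping encoded on the X chromosome, was listed by the same isoform in both lines (chrX:47004678-47046212). It had 2.17 FPKM in the RIP of HT-29 (input 0.489) and 1.35 in CaCo-2 (input 0). The authors' deposited table gave q = 0.586 for HT-29 and q = 0.0352 for CaCo-2. RBM42 was the highest RBM transcript in HT-29, at 8.76 against 2.24, and RBM26 was at 7.53 against 2.51. The authors' deposited table gave q = 0.123 for RBM42 and q = 0.0845 for RBM26. RBM3, a cold-induced protein, had a processed transcript at 7.17 against 1.45 in HT-29. RBM12 was at 5.84 against 0 in HT-29 and, by another isoform, at 6.71 against 3.18 in CaCo-2. RBM28 had a retained-intron transcript at 2.72 FPKM in the CaCo-2 RIP with input at 0, and RBM4, a splicing and translation regulator, a processed transcript there at 4.95 against 1.38. RBM12 transcripts overlap listed CPNE1 transcripts on the same strand, and the RBM26 transcript of HT-29 a listed RNA5SP33 one, so their levels are uncertain. RBM23 and RBM38 had inputs of 8.39e-05 and 9.99e-05 FPKM in HT-29 and RIP levels of 4.48 and 3.41. Such inputs near 0 held for 5 members in HT-29 and 2 in CaCo-2, counting those below 0.1 FPKM. RBM6 and RBM5 are neighbours on chromosome 3 and encode related splicing regulators. A retained-intron transcript of RBM6 was listed in both lines with ratios of 0.85 and 0.67. The RBM5 retained-intron transcript, present in the CaCo-2 table alone, had a ratio of 0.56. The RBM14-RBM4 read-through transcript, which overlaps both genes, was at 1.56 against 0.964 FPKM in HT-29.

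Of the member genes, 49 were in both tables, which is 72.1% of those in HT-29 and 71.0% of those in CaCo-2, against 59.1% and 51.4% of the other genes. The members had more listed transcripts per gene, a mean of 1.84 in HT-29 and 1.78 in CaCo-2, against 1.52 and 1.601, and the part of this in the overlap was not tested. Of the 49, 28 shared no transcript between the lines (57.1%), near the 55.2% of other genes in both tables. The 22 shared transcripts were 17.6% of the HT-29 members and 17.9% of the CaCo-2 members, near the 19.5% and 16.1% of all listed transcripts found in the other table. They comprised 12 protein-coding, 4 retained-intron, 3 processed and 3 nonsense-mediated-decay transcripts. At least 2-fold in both lines were 4 of 22 (18.2%), below the 30.0% among all transcripts that passed in both tables, a difference that was not tested. These were RBM39 (ENST00000426951), HNRNPD, SRSF5 (ENST00000394366) and RBM10, all protein-coding and each with input listed at 0 in at least 1 line. HNRNPD, which binds AU-rich elements, had RIP levels of 3.24 FPKM in HT-29 (input 0) and 5.80 in CaCo-2 (input 0.168). Of the 9 that had 1 FPKM or more in all 4 libraries, 0 were at 2-fold in both. The one nearest to it was of HNRNPUL1, a relative of HNRNPU. This nonsense-mediated-decay isoform had RIP levels of 6.89 FPKM in HT-29 (input 3.25), a ratio of 0.89, and 6.21 in CaCo-2 (input 1.31), a ratio of 1.64. In CaCo-2 it overlaps listed transcripts of TGFB1 and RN7SL34P on the opposite strand, so its level there is uncertain. HNRNPLL, a paralogue of HNRNPL, had 4.75 FPKM with input at 1.47 in HT-29 and 3.21 with 1.29 in CaCo-2, at ratios of 1.22 and 0.88. Across the 22 transcripts, which share the antibody and the software, the log2 ratios of the lines had a Pearson correlation of 0.51 and a Spearman correlation of 0.23. SNRNP70 had unlike ratios, 3.07 in HT-29 and 0.90 in CaCo-2. RBM39 (ENST00000426951), at 2.79 and 2.46, and HNRNPD, at 2.08 and 2.54, had the highest ratios of CaCo-2. Both had input listed at 0 in at least 1 line, and their part in the correlations was not tested.

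**Figure D5:**
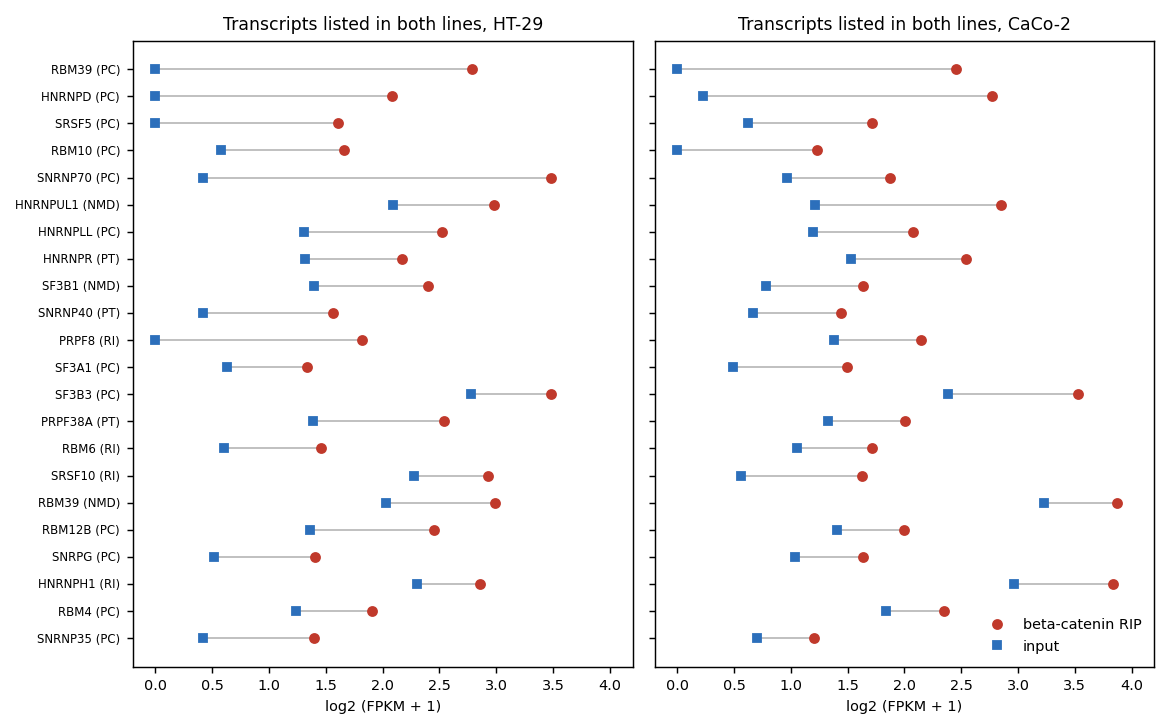
The 22 member transcripts listed in both lines, ordered by the lower of their 2 ratios, with RIP (red circles) and input (blue squares) as log2 of FPKM + 1 on the x axis, HT-29 left and CaCo-2 right. The 4 transcripts at the top are at least 2-fold higher in both lines, and each has input at 0 in at least 1 of them.

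Splicing genes outside these name patterns, a list of 87, were listed for 58 genes and 129 transcripts in HT-29 and for 63 genes and 153 transcripts in CaCo-2. At least 2-fold were 89 of 129 in HT-29 (69.0%, with 56.0% of all listed) and 57 of the 133 that passed in CaCo-2 (42.9%, with 40.8%). Their median ratios were 1.30 and 0.87, against 1.07 and 0.86 for the splicing factor and RBM members. Input was at 0 for 47 and 44 of these transcripts. Retained-intron transcripts were 25.6% (18.8 to 33.7) of those listed for HT-29 and 31.4% (24.6 to 39.1) for CaCo-2. Over all listed transcripts, without the filter, the members had 28.8% in HT-29 and 27.6% in CaCo-2. All transcripts that are not members had 16.9% and 22.6%. A high retained-intron share was thus not particular to the members. PCBP2, a poly(C)-binding protein, was highest in HT-29 at 50.6 against 10.6 FPKM, and PTBP1, a repressor that binds pyrimidine tracts, in CaCo-2 at 15.1 against 7.98. In the authors' deposited table, 7 transcripts of the list had q at or below 0.05 in HT-29 (5.43%, with 3.08% of all listed) and 3 in CaCo-2 (1.961%, with 2.24%). SRPK1, the kinase that phosphorylates SR proteins, was among them in both lines by different isoforms, at 5.22 FPKM for HT-29 and 4.30 for CaCo-2 from inputs at 0. The authors' deposited table gave q = 6.15e-05 for the HT-29 isoform and q = 0.00546 for the CaCo-2 one. PUF60, a U2AF-related factor, was at 11.1 FPKM in the RIP of HT-29 from input at 0, for which the authors' deposited table gave q = 1.21e-05.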

How the data were processed

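Per the submitters' processing notes, CASAVA 1.4, Bowtie2, TopHat2 2.0.8, Cufflinks and Cuffdiff were used with the hg19 build; the role of each tool, the other versions, the annotation release and strandedness are stated in no source used here. The deposited tables hold 1 row per Ensembl transcript with FPKM values that the authors normalised, from 1 library per side. Each deposited p-value and q-value is the authors' own and is quoted as such. Deposited starts count from 0 and were raised by 1.

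Members were found by gene name with pandas 2.3.3 in Python 3.11.15. The pseudocount was 1 FPKM, the filter asked for 1 FPKM or more in the RIP or the input, and the threshold 2-fold. Shares carry 95% Wilson intervals. With 1 library per group no test was made, and the lines' tables were normalised separately, so levels set across lines are a description. The counting functions were tested on simulated data with inputs well above the pseudocount, so their behaviour at low inputs was not tested. Members and lists were chosen with earlier results of these data known. Members named are those with the highest RIP FPKM (10 per line, 2 per family) and the highest ratios (10 per line, over all and over those with at least 1 FPKM in both libraries), those with q at or below 0.05, the 10 highest by the lower ratio of both lines, RBM5, RBM6 and genes with 3 or more listed transcripts. Those named outside this rule, among them RBM26, SRSF3, SNRPA, SNRPC and RBM38, were chosen after their values were seen. A gene that the rule names is not reported here.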

Additional observations from a re-analysis of the deposited data

How the results depend on the processing

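The counts of members at least 2-fold higher in the RIP, 66 in HT-29 and 50 in CaCo-2, followed the pseudocount and the treatment of low inputs. They were 89 and 71 with a pseudocount of 0.1 FPKM (71.2% and 63.4% of members, against 74.8% and 67.3% of the others) and 15 and 1 with 5 FPKM (12% and 0.893%, against 6.90% and 2.78%). The order of members and others thus turned with 5 FPKM in both lines and with 0.1 FPKM in CaCo-2. They were 23 and 8 with at least 1 FPKM in both libraries (36.5% and 19.0%, against 24.96% and 13.0%), and without transcripts at input 0 38 and 23 (39.2% and 27.1%, against 35.4% and 19.4%). In HT-29 the order turned under both of these, with 1 transcript per gene (58.8% against 55.5%) and without inputs under 0.1 FPKM (35.9% against 31.1%). With 1 transcript per gene they were 40 and 31, at 4-fold 17 and 4, and without inputs under 0.1 FPKM (chosen after seeing the data, as were leaving out HNRNPH1 and, for the difference below, 5 FPKM and no filter) 33 and 22. The median log2 ratio, 1.07 in HT-29 and 0.86 in CaCo-2, was 1.55 and 1.39 with a pseudocount of 0.1 FPKM, and 0.44 and 0.31 with 5 FPKM. It was 0.82 and 0.65 with at least 1 FPKM in both libraries, 0.87 and 0.72 without inputs at 0, and 0.85 and 0.70 without inputs under 0.1 FPKM. Members at 2-fold in both lines, 4, became 13 with a pseudocount of 0.1 FPKM, 0 among those at or above 1 FPKM in all 4 libraries, and 19 when genes were matched by name. The difference of medians, retained-intron minus protein-coding, changed sign, to 0.035, for HT-29 members at or above 1 FPKM in both libraries. In CaCo-2, where it was -0.0086, it turned to 0.054 with a pseudocount of 5 FPKM, 0.011 with no filter and 0.075 with at least 1 FPKM in both libraries. It was 0.11 there both without inputs at 0 and without inputs under 0.1 FPKM, and 0.17 without HNRNPH1. The cause of these changes was not tested. The retained-intron share of members stayed within its Wilson interval under every alternative run, lowest 25% and highest 31.5% for HT-29, lowest 24.7% and highest 33.3% for CaCo-2. The gap to the others did move in CaCo-2. There it was 24.7% against 24.1% without inputs at 0, and 25% against 25.1% without inputs under 0.1 FPKM. With at least 1 FPKM in both libraries it was 33.3% against 21.1%. In HT-29 these settings gave 29.9% against 17.3%, 31.5% against 17.9% and 28.6% against 13.3%. No paired analysis was possible because each group had 1 library. Depth is unknown from FPKM, so no limit from counting can be given for single levels.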
